A study of Mus musculus with 3 samples.

Results

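Peritubular myoid cells that were not dividing were examined in single-cell RNA sequencing of testes from mice at postnatal day 3, one library for each of 3 Cdk2 genotypes. Members were chosen by UMI counts (a unique molecular identifier stands for 1 captured RNA molecule) of the same cells that are described here. A cell counted as a member when it held at least 8 UMIs of Acta2, Myh11 and Tagln together and at least 3 of Col1a1, Col1a2, Col3a1 and Dcn together. It could hold at most 1 UMI of Rgs5, at most 5 of the steroid genes Cyp11a1, Cyp17a1 and Hsd3b1, and at most 2 of the Sertoli genes Amh, Sox9, Cldn11 and Inha. It also had to hold fewer than 4 UMIs of the mitotic genes Ube2c, Cenpf, Plk1 and Cenpa and fewer than 3 of the S-phase genes Rrm2, Tk1, Clspn and Tyms. The rule found 1645 of 14422 cells, which is 11.4% of all cells.

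The study's question was what CDK2 activity does to the fate of male germ cells. It compared whole testes of Cdk2+/+ mice (the Cdk2-WT library), Cdk2+/YS mice (Cdk2-HET) and Cdk2YS/YS mice (Cdk2-Y15S), in which the inhibitory tyrosine at position 15 of CDK2 is replaced by serine. The mice were of a mixed background that joined B6(Cg)-Tyrc-2J/J with FVB/NJ, and the controls shared it. The tissue was dissociated with trypsin, EDTA and DNase I at 3.5 days after birth and captured with droplets and 3′ chemistry. Each genotype had 1 library, and the sources used here do not give how many animals went into it. Genotype, animals and library preparation therefore cannot be told apart. No test between genotypes was possible, and every interval given here covers counting error only, at 95%.

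Peritubular myoid cells are flat, smooth-muscle-like cells that wrap the seminiferous tubule. They contract to move sperm and fluid along it, and together with Sertoli cells they lay down the basement membrane that encloses the tubule. They also secrete factors that act on the spermatogonial stem cells beneath them. In the newborn testis they are still maturing and many of them divide.

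The number of members was 464 of 5061 cells in the Cdk2-WT library, which is 9.17% (8.39 to 10.00), 596 of 4958 in Cdk2-HET, 12.02% (11.1 to 13.0), and 585 of 4403 in Cdk2-Y15S, 13.3% (12.3 to 14.3). The share was lowest in Cdk2-WT, and it is a share of all captured cells, which included 1422, 1224 and 904 non-cycling Sertoli cells. Set against mesenchymal cells only (members, cells of the same kind with 3 to 7 contractile UMIs, and interstitial stroma with at most 2), members made up 27.7% (25.6 to 29.9) in Cdk2-WT, 32.2% (30.04 to 34.3) in Cdk2-HET and 29.0% (27.1 to 31.1) in Cdk2-Y15S. With the cells of 3 to 7 contractile UMIs counted in, the shares were 38.1%, 37.5% and 33.8%, so the order of the libraries depended on where the line was drawn. Cells that passed the contractile and collagen parts of the rule but not the cycling part numbered 192, 225 and 143. They were 29.3% (25.8 to 32.9) of all myoid cells in Cdk2-WT, 27.4% (24.4 to 30.6) in Cdk2-HET and 19.6% (16.8 to 22.7) in Cdk2-Y15S. Members still held some S-phase RNA: 26.9%, 24.2% and 17.9% of them had at least 1 UMI of the 4 S-phase genes.

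Members held a median of 4823, 5104 and 4873 UMIs (values are given for Cdk2-WT, then Cdk2-HET, then Cdk2-Y15S throughout), with median mitochondrial shares of 2.69%, 2.82% and 2.85%, and their counts summed to 2275665, 3131552 and 2885572 UMIs. The 3 libraries shared 87 cell barcodes, which 174 cells carried. Of these cells 17 were members, and 2 barcodes belonged to 2 members each. No doublet caller was run, and doublets were handled only by the ceilings of the rule and by an alternative that left out members with other cells' markers or high depth.

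The contractile genes that set the rule had a median of 22.5 summed UMIs per member in Cdk2-WT (range 8 to 133), 30 in Cdk2-HET (8 to 153) and 31 in Cdk2-Y15S (8 to 138). No gap separated members from stroma at the threshold. The cells just outside it, at 7 UMIs, numbered 22, 11 and 15, and those just inside, at 8 UMIs, numbered 18, 17 and 8. Tnnt2, which the rule did not use, was at 53.9, 41.1 and 95.6 UMIs per 1000000 UMIs of all genes (CPM) in cells with 8 to 10 contractile UMIs and at 27.5, 35.5 and 23.3 CPM in those with 5 to 7. These levels rested on few UMIs of Tnnt2, 13, 8 and 14 inside the threshold and 11, 9 and 5 outside. Dlk1, abundant in stroma, was at 775, 854 and 335 CPM just inside and at 1847, 1317 and 1860 CPM just outside. Not every gene measured there changed at the line in each library. Fbxl22 was lower inside than outside in Cdk2-HET (41.1 against 47.3 CPM) and higher inside in Cdk2-WT and Cdk2-Y15S. Actg2 was about level in Cdk2-Y15S (13.66 against 13.99 CPM) and higher inside in Cdk2-WT and Cdk2-HET. Mgp and Col4a4 were higher inside in every library. Cdk2-WT had the most cells in the range of 3 to 7 UMIs, 173 against 99 and 96.

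**Figure D1:**
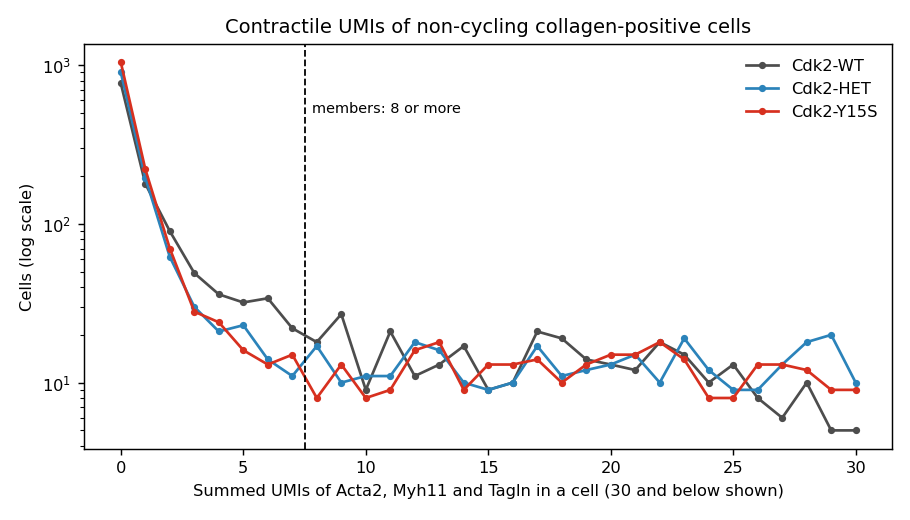
Number of non-cycling, collagen-positive cells (vertical axis, log scale) by summed UMIs of Acta2, Myh11 and Tagln (horizontal axis), one line per library; the dashed line marks the rule's minimum of 8. The Cdk2-WT line lies above the others from 3 to 7 UMIs, and none of the 3 lines drops to 0 there.

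All 5 marker genes were above their levels in stroma in every library. Acta2, the smooth muscle actin, was at 4931 CPM in Cdk2-WT, 5640 in Cdk2-HET and 6063 in Cdk2-Y15S, against 64.7, 45.7 and 41.3 CPM in non-cycling interstitial stroma and 15.1, 20.2 and 17.4 CPM in non-cycling Sertoli cells. Tagln, an actin-binding protein, was at 519, 753 and 864 CPM, and Myh11, the smooth muscle myosin heavy chain, at 204, 172 and 243 CPM. These 3 genes chose the members, and stroma and Sertoli cells were limited to at most 2 UMIs of them together, so their contrast was set by the choice of cells. Fbxl22, a sarcomere-associated F-box protein, was at 253, 312 and 431 CPM, against 3.49, 2.27 and 4.06 CPM in stroma. Tnnt2, the cardiac troponin T, was at 104, 153 and 276 CPM, against 0.616, 1.95 and 3.50 CPM in stroma, where it had 3, 12 and 25 UMIs. Fbxl22 and Tnnt2 were not part of the rule. The members were chosen with earlier results of these data known, so these levels describe the cells and are not an independent check of the label.

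Markers of other cells were low in the members but not absent. The rule itself capped some of these markers: Amh, Sox9, Cldn11 and Inha, Cyp11a1, Cyp17a1 and Hsd3b1, and Rgs5. Their sums were thus held down in part by the choice of cells. Stroma passed the same caps, and the Sertoli cells compared were chosen on the same Sertoli genes. The 10 Sertoli markers summed to 290, 279 and 255 CPM, below their 480, 508 and 483 CPM in stroma, against 11166, 10852 and 10132 CPM in Sertoli cells. The 6 endothelial markers summed to 60.2, 52.4 and 49.2 CPM, the 6 pericyte and vascular smooth muscle markers to 45.7, 56.5 and 49.2 CPM, the 6 fetal Leydig markers to 16.3, 12.8 and 14.2 CPM and the 5 erythroid markers to 10.5, 7.66 and 6.24 CPM. In stroma the pericyte and vascular smooth muscle markers were lower than in members, at 28.7, 26.2 and 26.7 CPM. The endothelial markers were higher there, at 153, 176 and 169 CPM, as were the fetal Leydig markers, at 20.7, 39.3 and 74.8 CPM. Erythroid markers in stroma were at 27.1, 21.6 and 4.76 CPM. The 3 germ cell markers had 6, 8 and 9 UMIs. The 4 markers of rete or epididymal epithelium had 7, 8 and 10, with Pax8, Cdh1 and Krt19 at 0, and the 3 mesothelial markers had 1, 3 and 0, with Upk3b and Lrrn4 at 0. The 6 interstitial fibroblast markers, shared in part with myoid cells, summed to 1556, 1548 and 1548 CPM, against 2548, 2927 and 2705 CPM in stroma. Macrophage markers had 153, 30 and 4 UMIs in members, and 1 Cdk2-WT cell held 152 of the 153. Pericytes and vascular smooth muscle, recognised by 2 or more UMIs of Rgs5, were found among only 4, 2 and 3 otherwise qualifying cells. This count rested on Rgs5 alone, so such cells without captured Rgs5 were not counted.

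Smooth muscle genes are commonly switched on by serum response factor, which binds the CArG box, a run of A and T flanked by CC and GG. The promoters of 4 contractile genes, all with such a box or a near match, are shown so that these boxes can be seen. Each runs from 250 bases before to 50 after the gene's start in RefSeq (build GRCm38.p6), on the gene's own strand, with capitals marking a CArG box or a match with 1 departure from it. Acta2 lies at chr19:34255324-34255623 on the minus strand, Fbxl22 at chr9:66514544-66514843 on the minus strand, Tnnt2 at chr1:135836084-135836383 on the plus strand and Myl9 at chr2:156775214-156775513 on the plus strand.
Acta2: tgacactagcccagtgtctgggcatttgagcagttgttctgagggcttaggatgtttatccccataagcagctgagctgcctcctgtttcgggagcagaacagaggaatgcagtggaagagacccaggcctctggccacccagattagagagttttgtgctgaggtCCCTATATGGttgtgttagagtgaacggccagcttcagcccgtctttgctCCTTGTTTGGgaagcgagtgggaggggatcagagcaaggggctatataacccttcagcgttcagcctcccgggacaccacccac
Fbxl22: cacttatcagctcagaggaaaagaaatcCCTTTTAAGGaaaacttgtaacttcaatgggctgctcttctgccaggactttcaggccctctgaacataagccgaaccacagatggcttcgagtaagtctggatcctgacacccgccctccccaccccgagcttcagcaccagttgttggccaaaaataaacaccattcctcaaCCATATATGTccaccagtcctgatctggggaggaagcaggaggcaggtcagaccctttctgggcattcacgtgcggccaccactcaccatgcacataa
Tnnt2: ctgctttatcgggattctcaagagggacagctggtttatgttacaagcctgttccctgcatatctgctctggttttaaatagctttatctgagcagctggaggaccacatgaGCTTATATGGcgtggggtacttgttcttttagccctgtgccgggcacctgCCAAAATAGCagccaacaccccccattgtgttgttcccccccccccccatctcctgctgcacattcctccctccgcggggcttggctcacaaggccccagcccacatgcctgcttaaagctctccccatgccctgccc
Myl9: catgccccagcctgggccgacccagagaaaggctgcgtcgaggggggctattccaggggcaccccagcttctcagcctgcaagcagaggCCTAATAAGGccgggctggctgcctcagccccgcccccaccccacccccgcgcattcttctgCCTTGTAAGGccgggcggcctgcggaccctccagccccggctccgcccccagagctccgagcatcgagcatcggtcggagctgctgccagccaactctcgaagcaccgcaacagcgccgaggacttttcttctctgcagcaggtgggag

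Fbxl22 and Myl9 each held 1 full CArG box, CCTTTTAAGG and CCTAATAAGG, while Acta2 and Tnnt2 held only matches with 1 departure. A second RefSeq start of Tnnt2 had none. The promoters of Cnn1, Des and Tpm2, not shown, held neither a full box nor a match with 1 departure. That of Lmod1, also not shown, held only matches with 1 departure. Tagln, Myh11 and Actg2 were not among the promoters used here. Over both strands, a full box was in 1.66% of the 6702 genes that were compared with stroma and had a promoter, in 4.71% (8 of 170) of those more than 2-fold above stroma, and in 20% (5 of 25) of the contractile list, with an interval of 6.83 to 40.7%. The interval of the 4.71% was 2.05 to 9.06%. Genes more than 2-fold below stroma held a full box in 2.67% (6 of 225, 0.98 to 5.71%), so the 2 intervals overlap. With 1 departure allowed the shares were 19.2%, 27.1% and 48.0%, and 19.6% for the genes below stroma. Across all 32851 RefSeq promoter windows of this length, 1.63% held a full box and 21.1% a match with 1 departure allowed. A match is a description of letters, not a binding site.

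Compared with interstitial stroma, members had many genes at more than 2-fold higher or lower levels in each of the 3 libraries. Of 8674 genes with at least 200 UMIs, 237 (2.73%) were higher and 307 (3.54%) lower in all 3. The groups were separated by the RNA of the same cells, so these differences describe the gate and are not tests. Of 24 measured genes of the contractile apparatus, a list that leaves out the rule's own genes, 18 were more than 2-fold above stroma and 1 was more than 2-fold below.

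With the rule's own genes set aside, the 15 genes farthest above stroma included 4 of the contractile apparatus, Actg2, Cnn1, Tnnt2 and Fbxl22. Actg2, the enteric smooth muscle actin, was at 49.2, 69.6 and 108 CPM in members and had only 1, 4 and 4 UMIs in stroma. Cnn1, calponin, was at 31.2, 38.0 and 51.3 CPM with 4, 1 and 4 UMIs in stroma. The others of the 15 were Dner, Tmem204, Ednrb, Tgfbi, Kcnk1, Ccrl2, Fgl2, Pde4b, Sytl2, Rerg and Ecscr. Ednrb, a receptor for the contractant endothelin, was at 21.5, 27.5 and 33.6 CPM in members with 4, 1 and 4 UMIs in stroma, while Ednra, the other endothelin receptor, lay closer to stroma, at 204, 223 and 258 CPM in members and 168, 146 and 177 CPM in stroma. Tgfbi, a matrix protein induced by TGF beta, was at 94.5, 107 and 92.2 CPM against 2.46, 3.25 and 4.201 CPM. Pde4b, which breaks down cyclic AMP, was at 44.8, 37.4 and 76.6 CPM against 2.05, 1.79 and 4.201 CPM. For Ccrl2, a chemerin-binding receptor also made by myeloid cells, the smallest of the 3 log2 ratios to stroma was 4.25, and 2.44 when members with UMIs of other cell types or high depth were left out.

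Stroma had its own genes. Dlk1 was at 425, 398 and 246 CPM in members against 3924, 4117 and 3910 CPM. Agtr2, an angiotensin receptor, was at 7.47, 8.94 and 10.1 CPM in members and 203, 236 and 248 CPM in stroma. Dpt (dermatopontin), Maob (monoamine oxidase B), S100b and Tppp3 followed, each with a log2 ratio between -3.89 and -5.00 in all libraries. The other 5 genes of the ranking were nearly absent from members: 2900055J20Rik had 2, 4 and 3 UMIs, Fam134b 1 in each library, Rxfp1 4, 3 and 2, Ptger3 0, 2 and 0, and Ndp 5, 8 and 5.

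**Figure D2:**
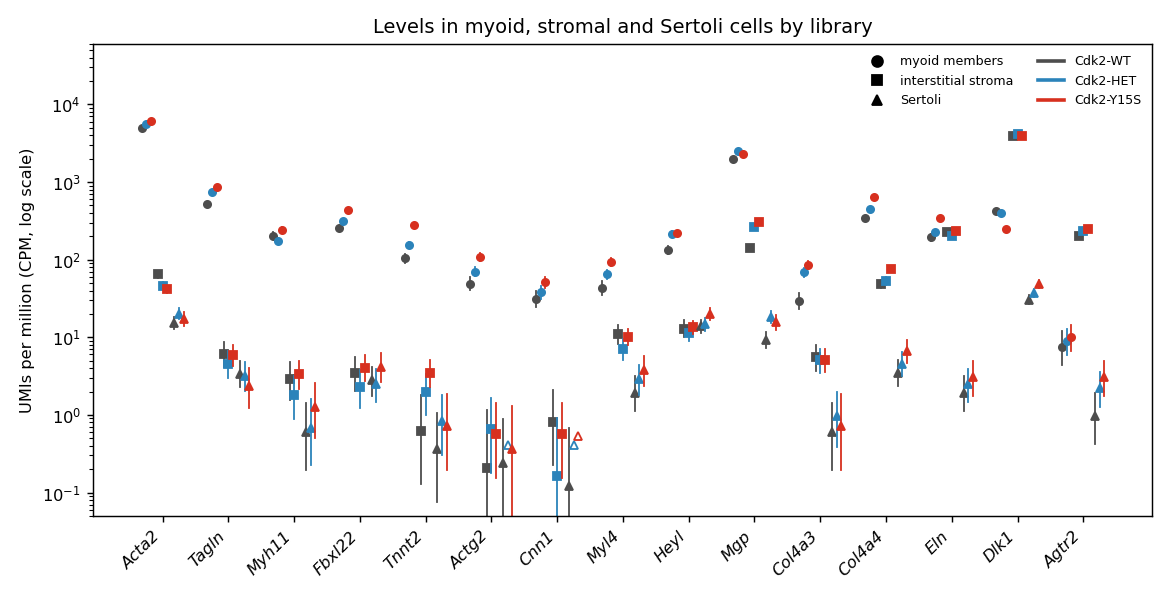
CPM (vertical axis, log scale) of 15 genes in members, interstitial stroma and Sertoli cells, coloured by library; bars are 95% Poisson intervals and an open symbol marks the limit that a count of 0 allows. For the contractile genes from Acta2 to Cnn1, members lay above both other cell types in every library. For Acta2, Tagln and Myh11 the choice of cells set this.

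The basement membrane genes of the members included 4 chains of type IV collagen. Col4a1 and Col4a2, the common type IV chains, were at 349, 569 and 557 CPM and at 355, 474 and 411 CPM, more than 2-fold above stroma in every library. Col4a3 was at 29.4, 69.0 and 85.9 CPM against 5.54, 5.04 and 5.04 CPM in stroma, and Col4a4 at 340, 451 and 640 CPM against 48.7, 53.0 and 75.8 CPM. Col4a3 and Col4a4 also stood higher in Cdk2-Y15S than in Cdk2-WT members. Col15a1, a collagen of basement membrane zones, was at 127, 189 and 151 CPM against 16.2, 22.8 and 32.9 CPM. Of 13 measured genes of the basement membrane list, which holds Col4a1, Col4a2 and Col15a1 but not Col4a3 and Col4a4, 3 were more than 2-fold above stroma and 1 below. The shares of all 8674 genes were 2.73% above and 3.54% below.

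Col4a3 (chr1:82586921-82722059, plus strand) and Col4a4 (minus strand) are transcribed away from each other, with their annotated starts 72 bases apart. The Col4a4 promoter window is shown because it holds the whole interval between them, printed on the minus strand of GRCm38.p6 from RefSeq at chr1:82586800-82587099, with the 71 bases between the GENCODE M21 ends of the 2 genes in capitals. It held no CArG box or match with 1 departure.
Col4a4: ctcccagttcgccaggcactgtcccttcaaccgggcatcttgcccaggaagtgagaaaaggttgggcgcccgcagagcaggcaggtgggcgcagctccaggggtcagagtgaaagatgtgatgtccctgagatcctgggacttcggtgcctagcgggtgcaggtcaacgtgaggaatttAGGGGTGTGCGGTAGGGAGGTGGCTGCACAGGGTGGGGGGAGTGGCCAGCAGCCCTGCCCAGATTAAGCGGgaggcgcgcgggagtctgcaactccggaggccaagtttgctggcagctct

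The comparison of genotypes asked which of the members' genes differed between the homozygous mutant and the control library. Of 3385 genes with at least 200 UMIs over both libraries, 72 (2.13%) were more than 1.5-fold higher in Cdk2-Y15S and 59 (1.74%) more than 1.5-fold lower. For Cdk2-HET, 61 of 3611 genes (1.69%) were more than 1.5-fold higher than in Cdk2-WT and 29 (0.803%) lower. With the median log2 ratio of 0.07 of that comparison set to 0, the Cdk2-HET counts became 37 higher and 55 lower, so the balance of directions there depended on the scaling. Both comparisons share the Cdk2-WT members. Of the 72 higher genes, 57 had at least 200 UMIs in stroma and of these 51 had the same sign and 22 were past 1.5-fold the same way there. Of the 59 lower ones 58 were measured in stroma, 56 with the same sign and 16 past 1.5-fold. In Sertoli cells 33 of 40 higher genes had the same sign and 11 were past 1.5-fold, and 41 and 13 of 46 lower ones. These cells come from the same libraries.

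The contractile genes that the rule did not use were higher in Cdk2-Y15S where they differed by more than 1.5-fold. Of 22 contractile genes with at least 100 UMIs, 5 were more than 1.5-fold higher and none lower, with a median log2 ratio of 0.14, while among all 5573 genes with at least 100 UMIs 3.25% were higher and 3.07% lower, with a median of -0.003. In Cdk2-HET, 2 of 22 contractile genes were higher and none lower, beside 2.94% higher and 1.21% lower of all 5783 genes at that minimum. The log2 ratio of Tnnt2 was 1.41 (1.198 to 1.62) in Cdk2-Y15S and 0.56 (0.33 to 0.79) in Cdk2-HET, and its level climbed in the order Cdk2-WT, Cdk2-HET, Cdk2-Y15S. Stroma held Tnnt2 in the same order of libraries, at the far lower levels given above. Actg2 had log2 ratios of 1.14 (0.82 to 1.47) and 0.50 (0.17 to 0.84). Myl4, an embryonic and atrial myosin light chain, was at 43.1, 64.8 and 93.6 CPM, with a log2 ratio of 1.11 (0.78 to 1.47) in Cdk2-Y15S, while in stroma it was at 10.9, 6.99 and 10.1 CPM. Fbxl22 and Cnn1 had log2 ratios of 0.77 (0.62 to 0.91) and 0.71 (0.30 to 1.15). Without members that held UMIs of other cell types or high depth, the log2 ratio of Fbxl22 was 0.45, short of 1.5-fold. The lowest were Vcl, vinculin, at -0.14 (-0.43 to 0.15) and Pdlim3 at -0.09 (-0.18 to -0.01).

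The abundant light chains and Tpm1 differed little, with log2 ratios of 0.05 for Myl9, 0.12 for Myl6 and 0.14 for Tpm1. Myl9, the regulatory light chain of smooth muscle myosin, was at 1932, 1938 and 1997 CPM, Myl6 at 2193, 2269 and 2387 CPM and Tpm1 at 1375, 1495 and 1515 CPM. Mylk, the kinase of the regulatory light chain, was at 386, 388 and 520 CPM, and Lmod1, an actin nucleator, at 76.5, 80.2 and 112 CPM. The contractile list's median log2 ratio was 0.13 in Cdk2-HET members. For Cdk2-Y15S over Cdk2-WT it was -0.05 in stroma and 0.47 in Sertoli cells, above the 0.14 of the members. The Sertoli value was taken without a minimum of UMIs in those cells, so it rests in part on low counts. Lmod1, for example, had 6 UMIs in Cdk2-WT and 7 in Cdk2-Y15S Sertoli cells.

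The mix of cells inside the gate moved with these values. Cdk2-WT members had a lower median of contractile UMIs, as given above, and more of the stromal gene Dlk1, whose log2 ratio in Cdk2-Y15S was -0.79 (-0.93 to -0.65) in members and -0.01 in stroma. The part of this mix in the results was not tested, but values in narrower sets of cells were measured. When only members with at least 20 contractile UMIs were kept (275, 444 and 441 cells), the log2 ratio over Cdk2-WT in Cdk2-Y15S was 1.205 for Tnnt2, 1.01 for Actg2, 0.62 for Fbxl22 and 1.39 for Col4a3. Cycling myoid cells of the same libraries, which are other cells, had Tnnt2 at 36.5, 63.9 and 125 CPM, Actg2 at 49.4, 72.5 and 103 CPM and Col4a3 at 25.8, 70.6 and 75.9 CPM. The order of the libraries was the same there.

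Seen cell by cell at a common depth, more members held these transcripts in Cdk2-Y15S. After each cell was thinned to 3000 UMIs, which left out 36, 22 and 40 shallower members, Tnnt2 was found in 23.4% (19.4 to 27.7) of Cdk2-WT, 31.2% (27.4 to 35.2) of Cdk2-HET and 42.0% (37.8 to 46.3) of Cdk2-Y15S members. Unthinned, the shares were 29.96%, 41.9% and 55.4%. In Sertoli cells, which should lack it and had higher median depths of 5859, 5907 and 5838 UMIs, the thinned shares were 0.0814%, 0.365% and 0.236%. In stroma they were 0%, 0.744% and 1.08%, in the same order of libraries as in members. Members with a UMI of Tnnt2 held on average 1.51, 1.51 and 1.91 of them. Actg2 was found in 10.05%, 14.98% and 21.8% of thinned members (14.01%, 20.97% and 28.2% unthinned), and Fbxl22 in 45.8%, 50.5% and 63.9% (57.8%, 62.1% and 74.2% unthinned). Sertoli cells held Actg2 in at most 0.118% and Fbxl22 in at most 1.30% after thinning.

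**Figure D3:**
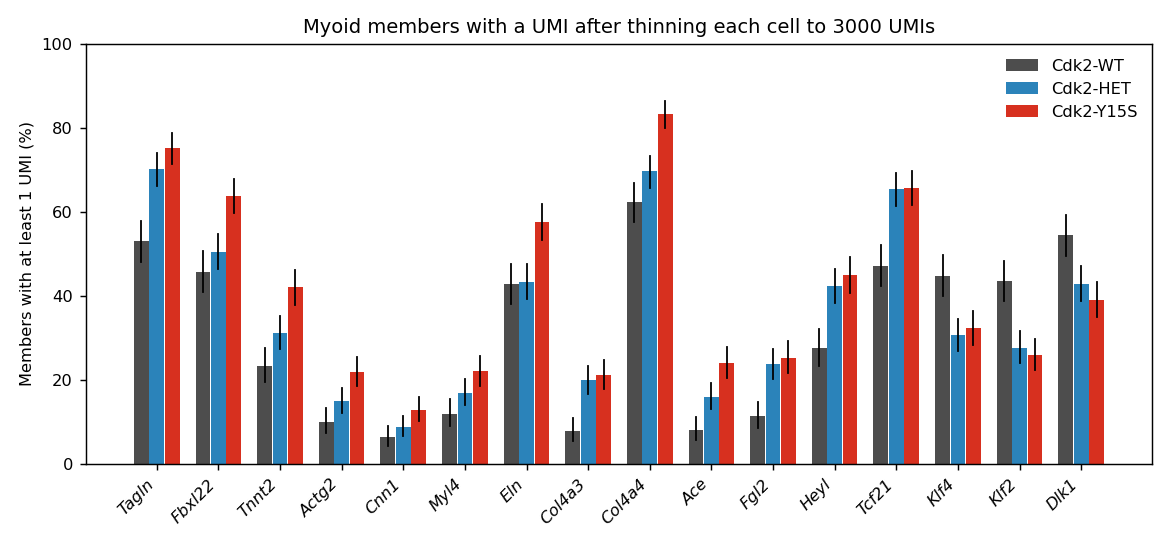
Share of members with at least 1 UMI of each of 16 genes (vertical axis, percent) after thinning every cell to 3000 UMIs, by library; lines are exact 95% binomial intervals. The Tnnt2 bars stand at 23.4, 31.2 and 42.0%, and those of Klf4, Klf2 and Dlk1 are highest in Cdk2-WT.

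Fewer genes that control smooth muscle transcription or handle calcium were measured. Of 9 genes of the serum response factor and myocardin list, 1 was more than 1.5-fold higher in Cdk2-Y15S and none lower, with a median log2 ratio of 0.22. The shares of all 5573 genes were 3.25% higher and 3.07% lower. The higher gene of the list was Mef2d, at 20.2, 28.7 and 31.9 CPM. Its log2 ratio of 0.65 was 0.46 without members that held UMIs of other cell types or high depth. Srf itself was at 31.6, 34.5 and 37.4 CPM, and Foxs1, a forkhead factor, at 176, 271 and 260 CPM against 37.4, 28.6 and 29.1 CPM in stroma. None of 13 genes for calcium, ion channels and cyclic GMP passed 1.5-fold in either direction, with a median of 0.05. Casq2, the calcium store protein, was at 188, 203 and 182 CPM, and Cav1, which forms caveolae, at 70.3, 81.8 and 96.7 CPM. Of 14 genes of this list measured against stroma, 5 were more than 2-fold higher in the members, among them Cav1, Pde5a and Ppp1r12b (Cav1 and Pde5a fell just short, at log2 ratios of 0.96 and 0.95, without members that held UMIs of other cell types or high depth), with Pde5a and Ppp1r12b acting in cyclic GMP breakdown and myosin dephosphorylation. Of all 8674 genes compared with stroma, 2.73% were higher in this way.

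Among receptors for contractants and hormones, 1 of 7 was more than 1.5-fold higher in Cdk2-Y15S and none lower, with a median of 0.04. The shares of all 5573 genes were 3.25% and 3.07%. The higher receptor was Ednrb, with a log2 ratio of 0.64 (0.13 to 1.17). That ratio was short of 1.5-fold in several alternatives, at 0.43 without members that held UMIs of other cell types or high depth. Esr1, the estrogen receptor alpha, was at 30.3, 25.6 and 20.8 CPM. Cdk2 itself was at 24.2, 25.2 and 27.7 CPM, with a log2 ratio of 0.19 (-0.32 to 0.72); a point mutation is not read by 3′ counts, so this level does not check the genotype. None of 6 genes of the CDK2 list passed 1.5-fold, and the lowest was Cdkn1c, a CDK inhibitor, at 86.6, 66.7 and 58.9 CPM.

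Matrix genes leaned higher than in Cdk2-WT in both other libraries. In Cdk2-Y15S, log2 ratios were above 0 for 8 of 10 basement membrane, 9 of 10 interstitial matrix and 8 of 12 elastic fibre genes. Intervals lay above 0 for 7, 5 and 5 of them, and below 0 for 2 elastic fibre genes. In Cdk2-HET, 8 of 9, 9 of 10 and 13 of 13 were above 0, with list medians of 0.27, 0.13 and 0.22. The median of all genes with at least 100 UMIs was -0.003 in Cdk2-Y15S and 0.07 in Cdk2-HET. List medians were above 0 in the other cell types too. The interstitial matrix median was 0.17 in members, 0.18 in stroma and 0.57 in Sertoli cells, and the elastic fibre median 0.17, 0.11 and 0.32. No minimum of UMIs was set in the other cell types, and some Sertoli counts were low. Fn1 had 22 and 21 UMIs and Col5a2 11 and 18 in Cdk2-WT and Cdk2-Y15S Sertoli cells. These cells were also chosen to hold fewer than 3 UMIs of Col1a1, Col1a2, Col3a1 and Dcn together. The median log2 ratio of 10 basement membrane genes was 0.23 in members, 0.25 in stroma and 0.34 in Sertoli cells. Of this list, which does not hold Col4a3 and Col4a4, 2 genes were past 1.5-fold higher and none lower. The shares of all 5573 genes were 3.25% higher and 3.07% lower. The 2 genes were Col4a1, with a log2 ratio of 0.67 (0.55 to 0.80), and Lamb2, a laminin chain, at 16.3, 19.2 and 26.3 CPM with a log2 ratio of 0.69. Without members that held UMIs of other cell types or high depth, the log2 ratios were 0.54 for Col4a1 and 0.34 for Lamb2, both short of 1.5-fold. Of 10 interstitial matrix genes only Sparcl1 passed 1.5-fold, at 228, 330 and 384 CPM, and none was lower. Its log2 ratio of 0.75 was 0.51 in that narrower set of members. Of 12 elastic fibre genes 3 were more than 1.5-fold higher and none lower, beside the same 3.25% and 3.07% of all genes. Eln, elastin, was at 194, 225 and 348 CPM in members against 225, 204 and 234 CPM in stroma, and its log2 ratio was 0.84 (0.68 to 1.01) in members and 0.05 in stroma. Lox, which cross-links elastin and collagen, was at 22.9, 32.6 and 45.7 CPM, and Fbln5, an elastic fibre assembly protein, at 78.2, 110 and 132 CPM. Mfap2 and Fbln1 were the lowest of the list, with log2 ratios of -0.36 and -0.47.

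Col4a3 had the highest ratio among the genes with at least 200 UMIs that the naming rule allowed, with a log2 ratio of 1.54 (1.15 to 1.96) in Cdk2-Y15S and 1.22 (0.83 to 1.65) in Cdk2-HET, against -0.14 in stroma. Col4a4, named after its values were seen because it shares the start region of Col4a3, had a log2 ratio of 0.91 (0.79 to 1.04) in members and 0.64 in stroma. After thinning, 7.94%, 19.9% and 21.1% of members held Col4a3 (12.1%, 28.2% and 31.6% unthinned) and 62.4%, 69.7% and 83.3% held Col4a4 (72.0%, 84.9% and 91.5% unthinned). Sertoli cells held them in at most 0.353% and 1.30%. Of the integrin and adhesion list, 1 of 6 was past 1.5-fold in each direction, beside 3.25% higher and 3.07% lower of all 5573 genes. Itgav, the alpha V integrin, was at 11.9, 19.2 and 31.5 CPM and Itgb5 at 29.0, 23.6 and 19.1 CPM. The log2 ratio of Itgb5 was -0.60, and -0.35 in thinned members, short of 1.5-fold.

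Signalling genes were mixed. Of all 5573 genes with at least 100 UMIs, 3.25% were more than 1.5-fold higher in Cdk2-Y15S and 3.07% lower. Of 13 genes of the TGF beta, BMP and activin list 1 was more than 1.5-fold higher in Cdk2-Y15S and 2 were lower, with a median of 0.25. Id2, a BMP target that blocks helix-loop-helix factors, was at 70.8, 71.5 and 152 CPM, so only Cdk2-Y15S stood apart. One of the lower genes was Inhba, the activin A subunit, at 109, 77.9 and 69.7 CPM. Its log2 ratio was -0.65, and -0.43 in members with at least 20 contractile UMIs. Of 3 PDGF genes none passed 1.5-fold, with Pdgfra at 144, 171 and 199 CPM, Pdgfrb at 39.5, 41.8 and 29.1 CPM and Pdgfa at 18.02, 20.4 and 20.4 CPM. In the hedgehog list 1 of 7 was higher and none lower: Boc, a co-receptor, was at 22.0, 26.8 and 33.3 CPM. The log2 ratio of Boc was 0.59, and 0.003 without members that held UMIs of other cell types or high depth, and it was short of 1.5-fold in other alternatives too. The hedgehog target and receptor Ptch1 was at 157, 181 and 193 CPM and Hhip, which captures hedgehog ligands, at 72.5, 64.5 and 67.9 CPM. In the Wnt and Notch list 1 of 6 was higher and none lower. That was Heyl, a Notch target enriched in mural cells, at 133, 214 and 217 CPM, against 12.9, 11.4 and 13.4 CPM in stroma. The log2 ratio of Heyl was 0.71, and 0.48 without members that held UMIs of other cell types or high depth.

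Ligands that reach the germ cell niche showed 1 lower gene. The shares of all 5573 genes past 1.5-fold in Cdk2-Y15S were 3.25% higher and 3.07% lower. Of 7 niche ligands Cxcl12, a chemokine that holds spermatogonial stem cells, was more than 1.5-fold lower in Cdk2-Y15S and none was higher, with a list median of 0.42. That median ranged from 0.10 to 0.51 over the alternatives, and 3 of the 7 intervals lay above 0 and 1 below. It was -0.05 in Cdk2-HET members, and for Cdk2-Y15S -0.13 in stroma and 0.38 in Sertoli cells. Cxcl12 was at 755, 473 and 444 CPM in members, with log2 ratios of -0.77 (-0.87 to -0.66) in Cdk2-Y15S and -0.68 (-0.78 to -0.57) in Cdk2-HET, and at 1473, 1316 and 1335 CPM in stroma. Mdk, midkine, was at 1125, 1642 and 1601 CPM and Gas6, a ligand of TAM receptors, at 164, 151 and 233 CPM. Of 9 insulin-like growth factor genes, 1 was lower and none higher. Igfbp3, a binding protein, was at 41.8, 14.4 and 14.2 CPM, and the growth factor Igf1 was at 168, 193 and 248 CPM. H19, an imprinted non-coding RNA, was at 1276, 1684 and 1903 CPM in members and 787, 878 and 765 CPM in stroma, with a log2 ratio of 0.58 (0.51 to 0.64).

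Among 12 transcription factors of gonadal mesenchyme 2 were more than 1.5-fold higher in Cdk2-Y15S and 1 was lower. Of all 5573 genes, 3.25% were higher and 3.07% lower. Tcf21, a helix-loop-helix factor of gonadal mesenchyme, was at 226, 410 and 427 CPM in members and 172, 281 and 259 CPM in stroma, and its log2 ratio in members was 0.92 (0.77 to 1.07). Zbtb20 was at 133, 172 and 224 CPM. The lower one was Klf4, a zinc finger factor known to repress smooth muscle genes, at 353, 168 and 163 CPM in members and 1653, 1482 and 1171 CPM in stroma. Its relative Klf2 was at 375, 194 and 176 CPM. Members held Klf4 in 44.9%, 30.7% and 32.3% of cells after thinning (55.0%, 42.3% and 40.0% unthinned). In Sertoli cells the thinned shares of Klf4 were alike, at 42.6%, 31.9% and 26.5%, so these shares do not set the members apart.

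Genes of immediate stress responses were lower in the Cdk2-Y15S members. Of all 5573 genes, 3.07% were more than 1.5-fold lower there and 3.25% higher. Of 16 immediate early and heat shock genes 4 were more than 1.5-fold lower and none higher, and all 16 log2 ratios were below 0, with a median of -0.48. The median was -0.15 in Cdk2-HET members, -0.35 in Cdk2-Y15S Sertoli cells and 0.03 in Cdk2-Y15S stroma. Members held less of this list than stroma, with median log2 ratios to stroma of -0.56, -0.88 and -0.92. Of 17 genes measured against stroma, 4 were more than 2-fold below it and 2 above. After thinning, Fos averaged 4.28, 2.90 and 2.35 UMIs per member and 10.9, 11.0 and 9.56 per stromal cell. Whether the mix of cells inside the gate has a part in these lower values was not tested. Fos was at 1443, 991 and 799 CPM with a log2 ratio of -0.85, which was -0.54 without members that held UMIs of other cell types or high depth. Jun was at 789, 537 and 471 CPM and Dusp1 at 99.8, 67.4 and 50.6 CPM. Egr1 hardly differed, at 1312, 1323 and 1268 CPM, nor did the heat shock gene Hspa8, at 2066, 2281 and 1976 CPM. The 11 mitochondrially encoded genes had a median of 0.05 with none past 1.5-fold.

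**Figure D4:**
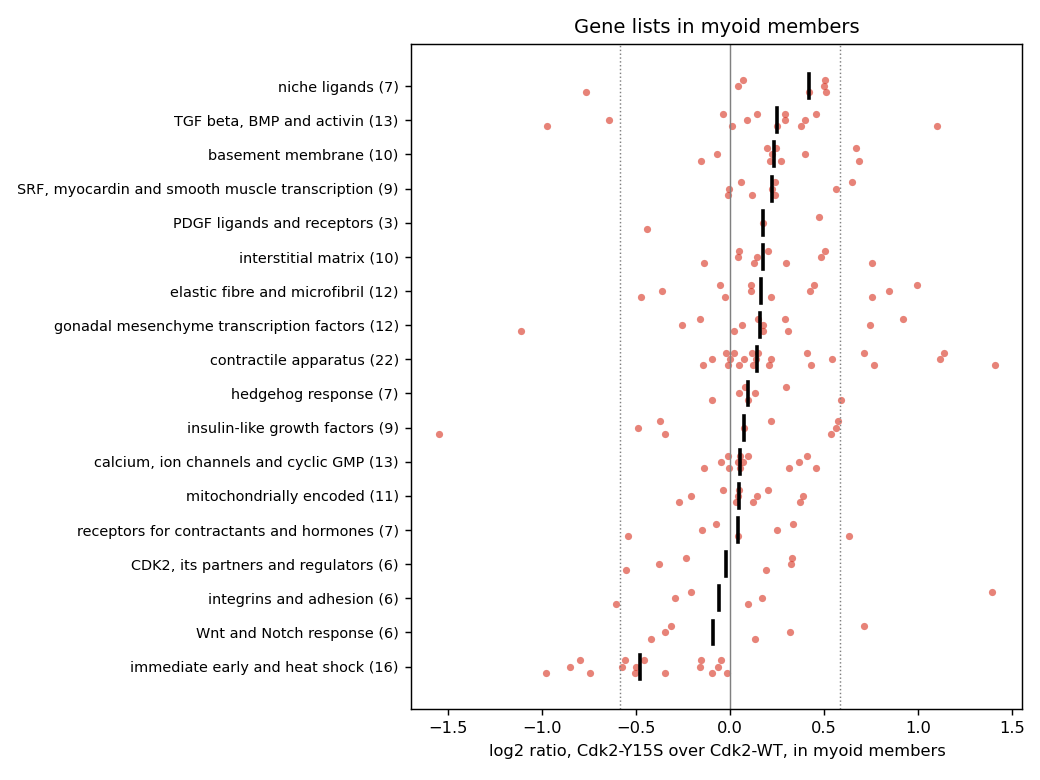
Log2 ratio of Cdk2-Y15S over Cdk2-WT in members for each gene with at least 100 UMIs (points), by list, with the number of genes in brackets and the list median as a black bar; dotted lines mark 1.5-fold. The immediate early and heat shock list is the only one whose points all lie below 0, with a median of -0.48.

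With mitochondrial, ribosomal protein, Gm and Rik names left out, the 10 highest ratios among genes with at least 200 UMIs belonged to Col4a3, Ace, Fgl2, Tnnt2, Dner, Stk25, Actg2, Myl4, Nt5dc3 and Id2. Ace, the angiotensin-converting enzyme, was at 29.4, 62.9 and 81.8 CPM in members, with a log2 ratio of 1.47 (1.08 to 1.89). Stroma held far less Ace, 2.46, 4.71 and 11.3 CPM, but in the same order of libraries. Fgl2, a secreted fibrinogen-like protein, was at 44.4, 93.9 and 120 CPM, and Dner, a neuronal Notch ligand, at 25.9, 54.9 and 66.5 CPM. In stroma Dner had only 2, 10 and 15 UMIs, with its CPM in the same order of libraries. Fgl2 was found in 0.588%, 1.30% and 1.67% of thinned stromal cells, also in that order. Stk25, a kinase of the Golgi and cytoskeleton, was at 40.0, 71.5 and 89.4 CPM, and its log2 ratio was 1.16 in members, 1.22 in stroma and 1.00 in Sertoli cells, so it was as high outside the myoid cells. Nt5dc3 had log2 ratios of 1.11, 0.93 and 0.98 in the same 3 cell types.

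Among the names that the rule left out, the ribosomal protein gene Rpl29 stood farthest apart. Rpl29 was at 32.1, 32.2 and 609 CPM in members, 30.6, 35.4 and 547 CPM in stroma and 24.2, 28.5 and 443 CPM in Sertoli cells. Its log2 ratio in Cdk2-Y15S was 4.24 (3.91 to 4.61) in members, and in each of the 3 cell types Cdk2-HET lay near Cdk2-WT. The gene was named after its values were seen. How reads were assigned to Rpl29 was not checked, so its values are uncertain.

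Under the same limit the 10 lowest ratios belonged to Oser1, Prss35, Syce2, Lig1, Klf4, Klf2, Rgs10, Cxcl10, Myl12b and E2f1. Oser1, an oxidative stress response gene, was at 144, 95.8 and 55.1 CPM, and its log2 ratio was -1.38 (-1.67 to -1.11) in members, -1.19 in stroma and -1.70 in Sertoli cells. Prss35, a serine protease-like protein, was at 217, 135 and 85.2 CPM, with log2 ratios of -1.35, -0.86 and -0.53. Rgs10, a G-protein regulator, was at 57.6, 62.0 and 27.0 CPM. Myl12b, a non-muscle myosin light chain, was at 156, 129 and 74.9 CPM; its reads may be shared with the near-identical Myl12a, so its value is uncertain. The replication genes E2f1, a cell cycle factor, and Lig1, a DNA ligase, were at 60.6, 42.1 and 29.1 CPM and at 58.9, 36.1 and 26.7 CPM, and fewer Cdk2-Y15S members held S-phase UMIs, as given above. In members with no UMI of the 8 cycling genes of the rule (299, 384 and 425 cells), the log2 ratio of E2f1 was -1.31 and that of Lig1 -1.13. Syce2, a synaptonemal complex protein, was at 56.2, 48.9 and 25.3 CPM. Cxcl10, an interferon-induced chemokine, was at 58.4, 19.5 and 27.7 CPM, but its log2 ratio of -1.07 became 0.01 when members with UMIs of other cell types or high depth were left out.

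In the heterozygous library the 5 highest ratios belonged to Hebp1, Col4a3, Pianp, Ace and Fgl2. Hebp1, a heme-binding protein, was at 40.0, 95.8 and 60.3 CPM and Pianp at 36.0, 84.3 and 50.2 CPM, so both were highest in Cdk2-HET. The 5 lowest were Il11ra1, Klf4, Ifitm1, Cebpb and Ntrk2. Il11ra1 was at 64.2, 28.4 and 70.3 CPM and has near-identical copies in the mouse genome, so its value is uncertain. Cebpb, a stress-responsive factor, was at 126, 60.4 and 81.4 CPM, Ifitm1 at 108, 51.4 and 56.8 CPM, and Ntrk2, a neurotrophin receptor, at 64.2, 31.6 and 34.3 CPM. Without the members that held macrophage UMIs, the log2 ratio of Cebpb was -1.08, against -1.06 with them. Without members that held UMIs of other cell types or high depth, the log2 ratio of Ifitm1 was -0.11, against -1.06 with them, which ended its call.

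**Figure D5:**
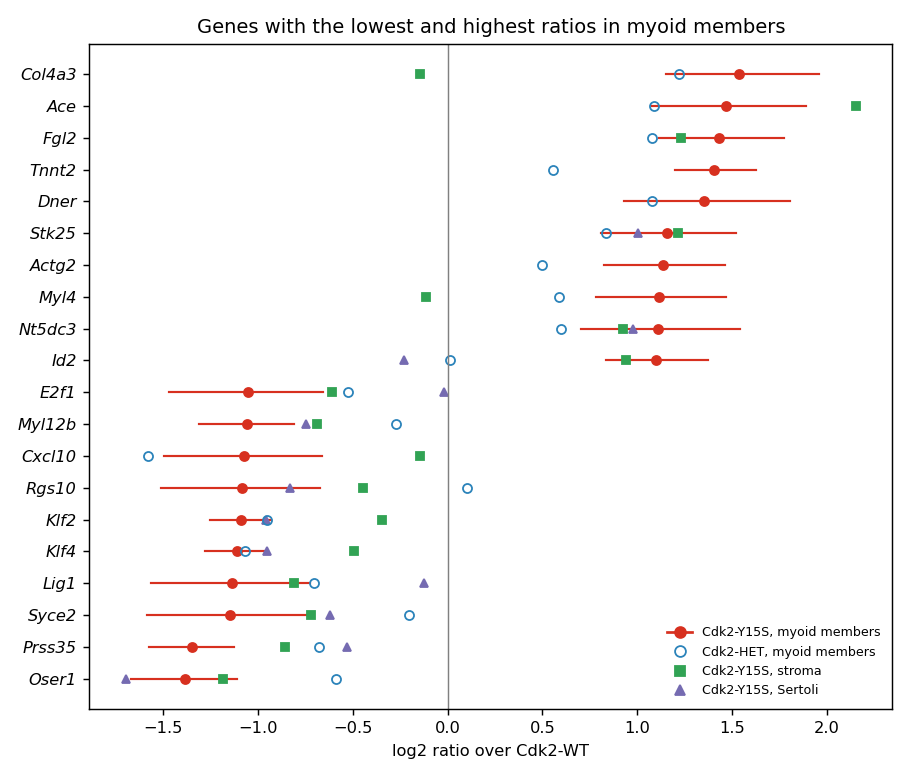
Log2 ratio over Cdk2-WT (horizontal axis) of the 20 genes with the highest and lowest ratios of Cdk2-Y15S in members; filled red circles with 95% intervals are Cdk2-Y15S members, open blue circles Cdk2-HET members, and squares and triangles Cdk2-Y15S stroma and Sertoli cells where a gene had at least 50 UMIs. Stk25 lies between 1.00 and 1.22 in all 3 cell types, while Myl4 and Col4a3 lie near 0 in stroma.

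The spread among members was read from the ratio of variance to mean, which also grows with a gene's level. After thinning to 3000 UMIs, this ratio over cells was largest, by its lowest value over the 3 libraries, among genes outside the rule for Malat1, Actb, Meg3, H19, Fos, Ier2, Klf2, Dlk1, Mt1, Junb, Id3 and Mgp, while the median of 1300 genes was 1.06, 1.05 and 1.05. Malat1, a nuclear non-coding RNA, had ratios of 7.83, 8.22 and 10.0, and Fos 6.87, 3.84 and 4.83. Dlk1, the stromal gene, had ratios of 4.16, 5.00 and 3.12 and was found in 54.4%, 42.9% and 39.1% of thinned members (63.4%, 54.9% and 48.2% unthinned). Sertoli cells held Dlk1 in 8.14%, 10.2% and 14.4% after thinning. Mgp, matrix Gla protein, which inhibits calcification, had ratios of 2.90, 3.08 and 2.82, and it was at 1971, 2513 and 2264 CPM in members against 142, 267 and 305 CPM in stroma. Acta2, which is bounded by the rule, had ratios of 5.00, 5.47 and 5.15. Tnnt2 had ratios of 1.72, 1.56 and 1.96 and Fbxl22 of 1.64, 1.79 and 1.66.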

How the data were processed

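The deposited gene-by-cell matrix holds UMI counts of 27998 genes in the cells of all 3 libraries, told apart by a barcode suffix that the labels name; per the submitters' processing notes the authors used Cell Ranger 2.1.0, Seurat and mm10, with no role given. The sources used here do not give how cells were called, and 2 deposited tables on germ cells were not used. The text gives the depth of the members; 1 library per genotype allowed no test of genotypes.

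Members were found by the stated UMI sums. Interstitial stroma passed the same limits with at most 2 contractile UMIs, and Sertoli cells held at least 5 UMIs of the Sertoli genes. The Sertoli cells also held at most 2 contractile UMIs and fewer than 3 of the collagen and Dcn genes, and passed the steroid and cycling limits. UMIs were summed per class and library and given per 1000000 (CPM) with exact Poisson intervals. Log2 ratios add 0.5 UMI to each count and have exact conditional binomial intervals. Shares have exact Clopper-Pearson intervals. A gene was compared where both groups together held at least 200 UMIs (100 for lists), and called past 1.5-fold, or past 2-fold over stroma in all 3 libraries. List medians in stroma and Sertoli cells used the genes with enough UMIs in members, with no minimum in those other cells. Ltbp4, under 2 identifiers, was left out of the lists.

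Named genes were the markers and rule genes, the 15 highest and 10 lowest over stroma by the ratio nearest to 1 (rule genes left out), the 10 highest and 10 lowest for Cdk2-Y15S and 5 and 5 for Cdk2-HET (without mitochondrial, ribosomal protein, Gm and Rik names), the 2 highest and 2 lowest of each list and its 3 highest over stroma, the 12 most variable genes with a mean of at least 0.3 UMI, and Cdk2. Some genes that the rule names are not reported here. Other genes of the lists were named as examples after their values were seen, as were Col4a4 and the genes shown just inside and outside the threshold, by share of cells and by promoter. The members and lists were chosen with earlier results of these data known. Alternatives changed the contractile threshold, filters, scaling, depth and background. Calculations used Python 3.11.15, numpy 2.4.6, scipy 1.17.1 and pandas 2.3.3, and were tested on simulated data. Positions are from GENCODE M21 (GRCm38, the assembly of mm10), which held 27645 of the identifiers.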

Additional observations from a re-analysis of the deposited data

Results flagged for a closer look

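Among the named genes past 1.5-fold in members, 2 had the opposite sign in Sertoli cells in Cdk2-Y15S against Cdk2-WT, with at least 200 UMIs there and an interval that did not reach 0. Id2, an inhibitor of helix-loop-helix factors, had a log2 ratio of 1.10 in members and -0.23 (-0.35 to -0.11) in Sertoli cells. Igfbp3, a binding protein of insulin-like growth factors, had a log2 ratio of -1.54 in members and 0.30 (0.03 to 0.58) in Sertoli cells. With 1 library per genotype the difference between the cell types was not tested.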

How the results depend on the processing

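No paired analysis was possible because each genotype has 1 library. Cell selection moved the shares: with a contractile minimum of 5 UMIs, members were 10.9% of Cdk2-WT and 13.0% of Cdk2-HET cells, and with 12 they were 7.69% and 11.0%. Without members that held UMIs of other cell types or high depth, the shares were 3.40%, 3.95% and 4.59% (172, 196 and 202 cells), and the counts of genes were 29 higher and 20 lower for Cdk2-Y15S, 22 and 9 for Cdk2-HET and 106 and 90 over stroma, with fewer UMIs tested; Cxcl10 then had a log2 ratio of 0.01 (0.005004 before rounding), and the cause was not tested. Thinning members to 3000 UMIs, which left fewer genes to test, gave 47 and 39 for Cdk2-Y15S and 33 and 19 for Cdk2-HET. Setting the median to 0 gave 37 and 55 for Cdk2-HET.

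A minimum of 50 UMIs gave 409 and 323 for Cdk2-Y15S, 414 and 155 for Cdk2-HET and 416 and 491 over stroma. A minimum of 500 UMIs gave 28 and 24, 14 and 12, and 147 and 199. With no minimum beyond 1 UMI, they were 2845 and 2320, 2894 and 2005, and 970 and 692. Members with no cycling UMIs, an alternative chosen after seeing the data like the minimum of 20 contractile UMIs and the exclusion of macrophage UMIs, gave 30 higher for Cdk2-HET; the cause was not tested. Of the other values, 2020 stayed within the limits used, 133 moved further and 1 turned (Cxcl10). Of 40 named genes past 1.5-fold in Cdk2-Y15S, 39 kept their sign and 27 stayed past 1.5-fold in every alternative run. The median of the immediate early and heat shock list ranged from -0.49 to -0.24 and that of the contractile list from 0.09 to 0.19. Applying the rule to cells thinned to 3000 UMIs gave 409, 572 and 547 members, of which 347, 504 and 502 were shared.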
